A study of Mus musculus with 6 samples.

Results

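10 noncoding RNA genes were followed in P14 CD8+ T cells: the snoRNA host genes Gas5, Snhg1, Snhg3, Snhg5, Snhg6, Snhg8, Snhg12 and Snhg15, and the nuclear long noncoding RNAs Malat1 and Neat1. They were chosen by name, as the rows of the raw count table whose Ensembl identifier carries one of these symbols. All 10 were found among the 55335 identifiers of the table, and all 10 were among the 19783 genes with enough counts to be tested. P14 cells carry a transgenic T cell receptor for the GP33-41 peptide of lymphocytic choriomeningitis virus, and the B16 melanoma cells used here carry that peptide. The mice were C57BL/6, 10 weeks old, and the donor P14 cells (genotype P14 TCR transgenic) had been transferred on day 11 after tumor implantation. P14 cells were sorted from tumors (3 libraries) and, as the control, from the spleens of tumor-bearing mice (3 libraries). Both groups therefore came from animals with a tumor, and only the tumor suspension passed over Percoll before the sort.

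A snoRNA host gene is transcribed as a long RNA whose introns are cut out and trimmed into small nucleolar RNAs, which guide the chemical modification or the cutting of ribosomal and other RNAs. The spliced host RNA that is left usually encodes no conserved protein, often begins with a run of pyrimidines like those of ribosomal protein mRNAs, and in several cases is degraded by nonsense-mediated decay when it is translated. Malat1 is an abundant RNA of nuclear speckles, where splicing factors are stored, and Neat1 is the RNA scaffold on which paraspeckles assemble. Malat1 and the long isoform of Neat1 keep their 3′ end through a triple helix in place of a poly(A) tail, after RNase P has cut the transcript. The short Neat1 isoform, from the same start, is polyadenylated, and a gene count does not tell the isoforms apart. The genes of Malat1 and Neat1 are neighbors.

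Total counts per library ranged from 35095261 to 38263483, and a count of 0 allows up to 3 counts, or at most 0.0855 CPM, the usual scale on which a gene's count is divided by the library's total. The CD8 T cell markers were present in both tissues, with summed levels of 4759 to 5012 CPM in tumor and 5508 to 5586 CPM in spleen. All 16 B cell markers tested were lower in tumor (summed 283 to 285 CPM against 1589 to 1597 CPM), and so were all 20 macrophage and myeloid markers (44.6 to 45.8 CPM against 354 to 374 CPM). Among the CD8 T cell markers, Lck, the kinase of the T cell receptor, had 805 CPM ± 25.9 in tumor against 1166 CPM ± 17.1 in spleen, and Cd8b1, the CD8 beta chain, 751 CPM ± 36.9 against 1174 CPM ± 12 (SD, n = 3). Cd8a, the CD8 alpha chain, went the other way, with 645 CPM ± 21.4 in tumor against 364 CPM ± 6.62 in spleen. Of the 10 CD8 T cell markers, 1 was higher in tumor and 4 were lower. Ighm, the heavy chain of IgM, was the highest B cell marker at 270 CPM ± 1.7 against 807 CPM ± 8.11, and Cr2 was at 0 counts in every tumor library. Csf1r, the macrophage growth factor receptor, had 11.4 CPM ± 0.37 against 43.9 CPM ± 3.17, and Lyz2, a myeloid lysozyme, 10.2 CPM ± 0.799 against 91.1 CPM ± 2.87. The highest melanoma markers were Gpnmb (12.2 CPM ± 0.169 against 12.8 CPM ± 0.858) and Pmel (8.54 CPM ± 0.876 against 19.8 CPM ± 1.07), and the highest erythroid marker was the globin Hba-a1 (78.5 CPM ± 5.95 against 65.7 CPM ± 0.848). Other melanoma markers were higher in tumor, at low levels. Dct had 0.46 CPM ± 0.018 against 0.00885 CPM ± 0.0153, and Tyrp1 had 0.575 CPM ± 0.304 against 0 counts in every spleen library. Of the 4 melanoma markers tested, Dct was the 1 higher and Pmel the 1 lower in tumor. The part of these other cells' RNA in the results that follow was not tested. In bulk samples such as these, fewer cells of a type and less RNA per cell cannot be told apart. Nothing in the labels states that replicates are different animals, and p-values here reflect only how far these samples spread, in part perhaps technically. The code in the sample descriptions ends differently for tumor and spleen libraries, and that difference and the tissue cannot be told apart.

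Of the 10 genes, 6 were higher in tumor (Gas5, Snhg1, Snhg5, Snhg6, Snhg12 and Snhg15), 2 were lower (Malat1 and Neat1) and 2 passed in neither direction (Snhg3 and Snhg8). Calls used edgeR's quasi-likelihood test with a Benjamini-Hochberg adjusted p below 0.05 over all genes tested. Against the background, 70.7% of all genes tested were called, 34.8% higher and 35.9% lower in tumor, so a called gene was the common case in this comparison. Among 1787 long noncoding gene models tested, 60.1% were called, 18.1% higher and 42% lower. Their median log2 change was -0.32, beside -0.02 over all genes tested and 0.55 over the 10 genes. The libraries of the tissues did not overlap in CPM for 8 of the 10 genes, beside 74.5% of all genes tested.

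**Figure D1:**
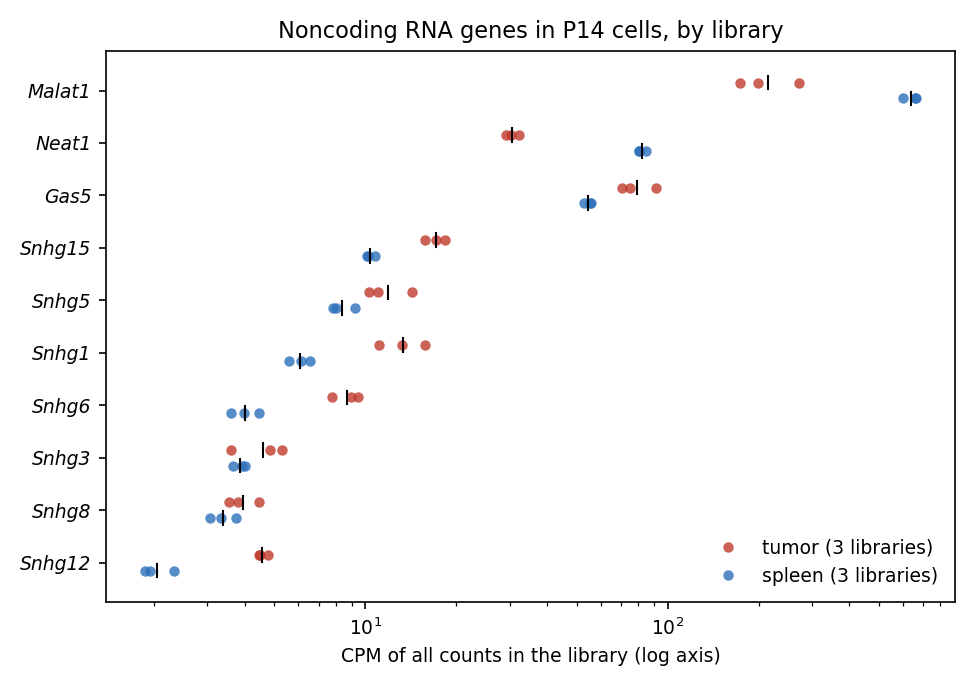
CPM of each gene (log axis) in the 3 tumor libraries (red) and 3 spleen libraries (blue), with a black bar at each tissue's mean. Malat1 and Neat1 lie to the left in tumor, the 6 host genes that rose lie to the right, and Snhg3 and Snhg8 overlap between tissues.

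Gas5 (ENSMUSG00000053332.13, chr1:161034422-161038539, plus strand, mm10) is named for its accumulation in growth-arrested cells and hosts a series of box C/D snoRNAs. Its level was 70.7, 75.4 and 91.4 CPM in the tumor libraries and 55.4, 52.9 and 55.6 CPM in the spleen libraries. The lowest tumor library lay above the highest spleen library, and tumor replicate 3 stood highest. The fold was 1.48 (log2 0.56, SE 0.08, adjusted p = 8.3e-05). Gas5 held 54.1% to 56.8% of the counts of the 8 host genes in tumor and 58.2% to 59.4% in spleen, so a sum over host genes is largely a Gas5 value. Together the 8 genes took 0.0131%, 0.0138% and 0.0161% of all counts in the tumor libraries and 0.00936%, 0.00909% and 0.00936% in the spleen libraries.

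3 host genes were more than 2-fold higher in tumor: Snhg12, Snhg1 and Snhg6. A change of at least 2-fold upward with a call was seen in 9.96% of all genes tested. Snhg12 (ENSMUSG00000086290.9, chr4:132308623-132311024, plus strand), which hosts snoRNAs of both main classes, had 4.47, 4.76 and 4.45 CPM in tumor and 2.32, 1.86 and 1.94 CPM in spleen. The tumor libraries were close to each other and all lay above the spleen libraries, a 2.28-fold difference (log2 1.19, SE 0.14, adjusted p = 1.2e-05). Snhg1 (ENSMUSG00000108414.1, chr19:8723475-8726443, plus strand), the host of a cluster of box C/D snoRNAs, had 11.1, 13.2 and 15.7 CPM in tumor and 6.13, 6.56 and 5.58 CPM in spleen. Its tumor libraries were spread more widely than its spleen libraries without meeting them, and the fold was 2.22 (log2 1.15, SE 0.13, adjusted p = 7.9e-06). Snhg6 (ENSMUSG00000098234.7, chr1:9941959-9944118, minus strand), the host of Snord87, had 7.73, 8.94 and 9.45 CPM in tumor and 4.46, 3.59 and 3.96 CPM in spleen. The tissues did not overlap, and the difference was again 2.22-fold (log2 1.15, SE 0.12, adjusted p = 5.6e-06).

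Snhg15 and Snhg5 rose by less. Snhg15 (ENSMUSG00000085156.8, chr11:6525591-6528760, minus strand), the host of Snora9 and a short-lived RNA in other cells, had 18.3, 17.1 and 15.8 CPM in tumor and 10.1, 10.8 and 10.2 CPM in spleen. The tissues were well apart, with a 1.68-fold difference (log2 0.75, SE 0.09, adjusted p = 1.9e-05). Snhg5 (ENSMUSG00000097195.9, chr9:88521050-88522929, minus strand), the host of Snord50a and Snord50b, had 11, 10.3 and 14.3 CPM in tumor and 8.01, 7.81 and 9.26 CPM in spleen. Here the lowest tumor and the highest spleen library came close, and the fold was 1.45 (log2 0.53, SE 0.13, adjusted p = 0.003).

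Snhg3 and Snhg8 overlapped between tissues. Snhg3 (ENSMUSG00000085241.7, chr4:132348014-132353686, minus strand), which hosts Snora73a and Snora73b, had 3.59, 4.83 and 5.3 CPM in tumor and 3.91, 3.64 and 3.99 CPM in spleen. The first tumor library lay below all spleen libraries and the other two lay above them, and the log2 difference was 0.28 (SE 0.15, adjusted p = 0.11). Without that tumor library the log2 difference of Snhg3 was 0.43 (adjusted p = 0.0078). Snhg8 (ENSMUSG00000104960.1, chr3:123507552-123508404, minus strand), the host of Snora24, had 3.78, 3.55 and 4.45 CPM in tumor and 3.34, 3.74 and 3.05 CPM in spleen. Its log2 difference was 0.24 (SE 0.14, adjusted p = 0.13), and these values do not show that its levels were equal.

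Malat1 and Neat1 differed in the other direction, with larger fitted log2 changes than any of the 8 host genes. Malat1 (ENSMUSG00000092341.3, chr19:5795690-5802672, minus strand) had 174, 272 and 199 CPM in tumor and 665, 658 and 600 CPM in spleen. The tumor libraries were the more variable, with tumor replicate 2 highest, and all lay far below the spleen libraries. The fold was 2.92 lower in tumor (log2 -1.55, SE 0.13, adjusted p = 8.1e-07). Neat1 (ENSMUSG00000092274.3, chr19:5824708-5845478, minus strand) had 32.3, 30.3 and 29.2 CPM in tumor and 85, 80.6 and 80.6 CPM in spleen. Replicates of either tissue were close together, and Neat1 was 2.63-fold lower in tumor (log2 -1.40, SE 0.07, adjusted p = 9e-09). A call with at least 2-fold lower level was seen in 14.5% of all genes tested, and 8.05% of genes tested had a log2 change below that of Malat1.

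**Figure D2:**
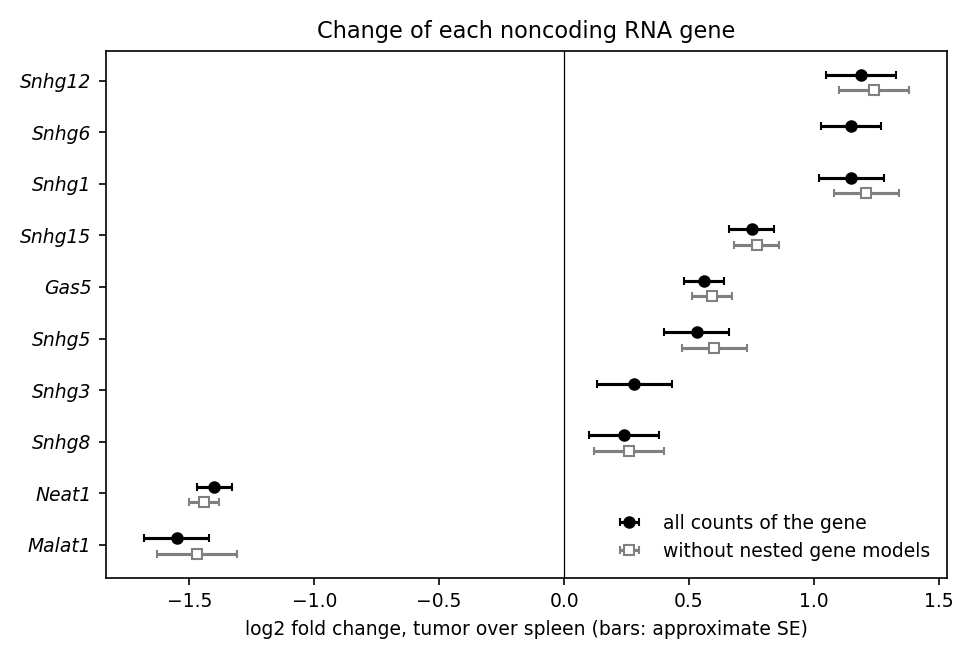
Log2 fold change of each gene, tumor over spleen, with its approximate standard error (bars), for all counts of the gene (filled circles) and without counts in gene models that lie inside it (open squares). Malat1 is at -1.55 and -1.47, Neat1 at -1.40 and -1.44, and the host genes lie between 0.24 and 1.24.

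The ratio of Neat1 to Malat1 counts was 0.185, 0.111 and 0.147 in the tumor libraries and 0.128, 0.122 and 0.134 in the spleen libraries. The tumor values lay on both sides of the spleen values. The means differed by 0.0193, with a two-sided exact permutation p of 0.5, where 3 libraries against 3 cannot go below 0.1. Without the counts of gene models inside the genes, described further on, the ratio was 0.359 ± 0.135 in tumor and 0.328 ± 0.0246 in spleen (SD, n = 3; exact permutation p = 1). A p of this kind does not show that the ratio was equal.

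Per kilobase of merged exons, Malat1 had the highest level of the 10 genes in both tissues, at 30.8 CPM per kb ± 7.26 in tumor against 91.8 ± 5.13 in spleen (SD, n = 3). Next came Gas5 (21.1 ± 2.89 and 14.5 ± 0.401 CPM per kb) and then Snhg15 (12.6 ± 0.947 and 7.64 ± 0.292 CPM per kb). In tumor, Snhg6 (7.6 CPM per kb) and Snhg5 (6.85) followed and overlapped each other. Below them Snhg3 (4.64) overlapped Snhg8 (4.61), and Snhg8 overlapped Snhg1 (4.48). Snhg12 (1.9 CPM per kb) and Neat1 (1.47) closed the order in tumor. In spleen, Snhg5 (4.83 CPM per kb) came next, then Snhg8 (3.96), Neat1 (3.95), Snhg3 (3.9) and Snhg6 (3.49), where each overlapped the next. Snhg1 (2.05 CPM per kb) and Snhg12 (0.849) were lowest. Per kilobase of the longest annotated transcript, the top of the order in tumor turned, with Gas5 at 31 CPM per kb and Malat1 at 30.8, while in spleen Malat1 stayed first at 91.8 against 21.4. On the scale of merged exons, Neat1 was below all host genes in tumor and above Snhg1 and Snhg12 in spleen.

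The counts of Malat1 were spread very unevenly along the gene. The table also holds gene models that lie wholly inside an exon of another gene, and these give counts for short stretches of the outer gene. Where the outer model had at least 100 counts, 385 of 401 inner models on the same strand (96%) and 196 of 201 on the opposite strand (97.5%) had counts, and no inner model exceeded its outer one. These values are what counting a read for every gene it overlaps, on either strand, would give. One such model, Gm37376, is annotated on the opposite strand at chr19:5801941-5802393 and covers bases 280 to 732 of Malat1 counted from its start. This stretch of 453 bases is 6.49% of the gene and held 72.2%, 68.2% and 58.2% of the Malat1 counts in the tumor libraries and 67.6%, 67.5% and 68.7% in the spleen libraries. In tumor the stretch had 10.1, 15.7 and 9.25 counts per base, beside 0.271, 0.507 and 0.461 over the rest of the gene. In spleen it had 36.2, 36.9 and 31.9 counts per base, beside 1.21, 1.23 and 1.01. Most of the value printed as Malat1 in either tissue is therefore the count of this stretch.

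**Figure D3:**
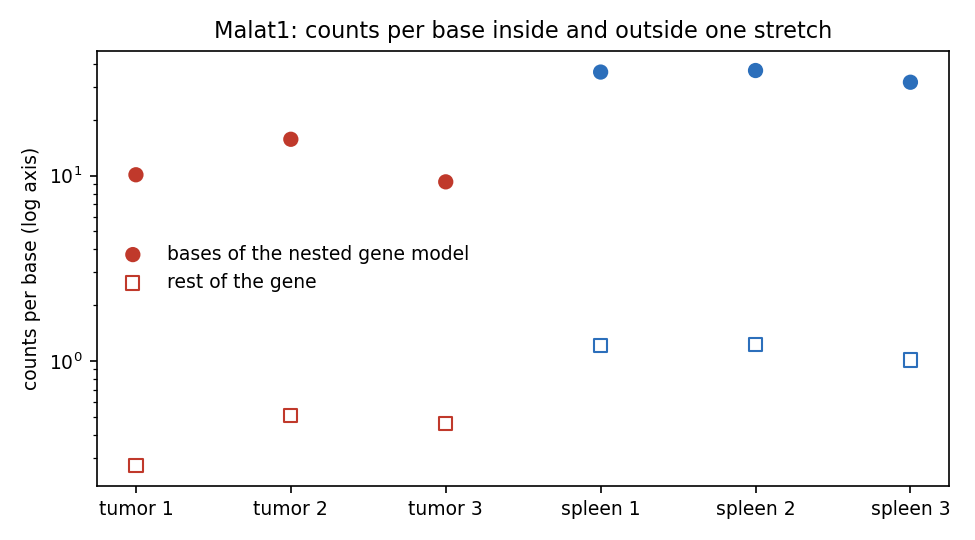
Counts per base of Malat1 (log axis) in each library, in the 453 bases shared with Gm37376 (filled circles) and in the other 6530 bases (open squares), tumor in red and spleen in blue. Both parts are lower in all 3 tumor libraries than in any spleen library.

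Part of that stretch is repeated elsewhere in the transcriptome. Reads were 50 bases long, and 83 of the 404 possible 50-base reads of the stretch occur letter for letter in transcripts of 714 other genes, genes that overlap Malat1 itself left aside. They cover bases 574 to 705 of Malat1, and no other of the 6934 possible reads of the longest Malat1 transcript was shared in this way. The bases are shown with 20 on either side (GRCm38, chr19:5801948-5802119, minus strand, bases 554 to 725 of Malat1), with those covered by shared reads in capitals. Their letters are those of a B1 element, a short interspersed repeat of rodents.
Malat1 stretch: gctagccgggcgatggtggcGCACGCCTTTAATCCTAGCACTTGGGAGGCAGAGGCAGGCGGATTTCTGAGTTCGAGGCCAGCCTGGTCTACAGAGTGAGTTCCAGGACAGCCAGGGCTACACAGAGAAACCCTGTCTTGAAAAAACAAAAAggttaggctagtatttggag
How the authors treated reads with several matches is not recorded in the sources at hand, and the share of the counts that fell on the bases in capitals was not tested.

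The fall of Malat1 was seen in both parts of the gene. Gm37376, the stretch itself, was 2.99-fold lower in tumor (log2 -1.58, SE 0.14, adjusted p = 1.5e-06). Outside the stretch and a second small inner model, Malat1 had 72.7 CPM ± 21 in tumor against 206 CPM ± 15.5 in spleen (SD, n = 3). That is 2.78-fold lower (log2 -1.47, SE 0.16, adjusted p = 8.7e-06). The order of levels did depend on it. Without inner models, Malat1 had 11.3 CPM per kb ± 3.26 in tumor, below Gas5 at 23.9 ± 3.13, while in spleen it stayed above Gas5 at 31.9 ± 2.41 against 16.2 ± 0.38. Neat1 holds 3 inner models near its start, which carried 17.5% to 22.6% of its counts. Without them Neat1 was 2.72-fold lower (log2 -1.44, SE 0.06, adjusted p = 5.3e-09). The same search was made in the longest transcript of each other member, again leaving aside genes at its own locus. Snhg15 had 31 of 626 possible reads shared with another gene (4.95%), Snhg5 had 13 of 1172 (1.11%), Snhg1 had 12 of 2679 (0.45%) and Neat1 had 46 of 20722 (0.22%). The longest transcripts of Gas5, Snhg3, Snhg6, Snhg8 and Snhg12 had none. Their other exons, and bases shared with overlapping genes, were not part of this search.

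The snoRNA models themselves held few counts. A snoRNA model inside a host exon also takes reads of the host transcript. Of 30 snoRNA models inside the 8 host genes, 9 had enough counts to be tested and 2 were higher in tumor. Among all genes tested, 34.8% were higher. The 30 include overlapping models of the same snoRNA for Snord80 and Snora16a. Snora73b, a box H/ACA snoRNA needed for cutting the ribosomal RNA precursor, lies in an intron of Snhg3 (chr4:132352322-132352526, minus strand). It had 2.11, 2.3 and 2.02 CPM in tumor and 0.902, 1.3 and 1.17 CPM in spleen. The tissues did not overlap, and the fold was 1.94 (log2 0.96, SE 0.18, adjusted p = 0.00064), although Snhg3 itself passed in neither direction. The difference between Snora73b and Snhg3 was not tested. Its bases also lie within the spans of Rcc1 on the same strand and of Gm17300 on the opposite strand, both described further on. Rcc1 rose 2.08-fold, and reads of Snora73b cannot be assigned to Snhg3 from the counts alone. Gm23212, a model inside Gas5, was the other that rose, with 1.16 CPM ± 0.231 in tumor against 0.813 CPM ± 0.0563 in spleen (SD, n = 3; log2 0.54, adjusted p = 0.043). Snord78, a box C/D snoRNA of Gas5 (chr1:161036984-161037049, plus strand), had 1.54 CPM ± 0.543 and 1.26 CPM ± 0.193 (log2 0.31, adjusted p = 0.28).

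One snoRNA of each main class is shown, read from GRCm38, because the class decides which proteins bind the RNA. Capitals mark letters of box C and box D in Snord78 and the last ACA in Snora73b, which stands 3 bases before the end.
Snord78: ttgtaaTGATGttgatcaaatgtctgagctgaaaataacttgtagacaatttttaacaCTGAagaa
Snora73b: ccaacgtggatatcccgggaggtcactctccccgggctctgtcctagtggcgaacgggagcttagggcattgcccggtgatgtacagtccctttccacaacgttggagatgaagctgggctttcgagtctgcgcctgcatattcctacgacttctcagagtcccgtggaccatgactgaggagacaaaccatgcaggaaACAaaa

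The bases around the transcription start were read for the members with a RefSeq window (GRCm38.p6), since host genes are known for a pyrimidine run there. Each line shows 60 bases, 30 before the annotated start and 30 from it on, on the strand of the gene. Capitals mark a C followed by at least 4 letters C or T, beginning within 5 bases of the start and searched on the gene's own strand only. The windows are chr1:161035136-161035195 for Gas5, chr4:132308648-132308707 for Snhg12, chr4:132353657-132353716 for Snhg3, chr3:123508307-123508366 for Snhg8, chr19:8723457-8723516 for Snhg1 and chr11:6528731-6528790 for Snhg15.
Gas5: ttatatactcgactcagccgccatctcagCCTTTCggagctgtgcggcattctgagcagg
Snhg12: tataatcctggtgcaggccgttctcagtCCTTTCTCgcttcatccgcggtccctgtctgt
Snhg3: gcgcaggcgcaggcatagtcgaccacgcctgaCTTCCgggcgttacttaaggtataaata
Snhg8: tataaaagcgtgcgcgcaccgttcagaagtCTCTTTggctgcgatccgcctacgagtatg
Snhg1: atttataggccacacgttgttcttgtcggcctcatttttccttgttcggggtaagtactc
Snhg15: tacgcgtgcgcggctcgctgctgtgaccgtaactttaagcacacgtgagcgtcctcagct
The run was found in Gas5 and Snhg12, which rose, and in Snhg3 and Snhg8, which passed in neither direction. By this rule it was not found for Snhg1, Snhg5, Snhg15 and Malat1 or at another annotated start of Gas5. The Snhg5 window, not shown, holds such a run further from the start. The Snhg1 window holds a pyrimidine run that begins with T, which the rule leaves out. Snhg6, which rose, and Neat1 had no window and were not searched. The same rule found a run in 14.7% of 32851 RefSeq windows. A match describes letters at an annotated start, and a missing match says only that no run of this form begins within 5 bases of it.

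Several members have another gene at their start or across them, and most of these neighbors also differed between tissues. Of all genes tested, 70.7% were called in this comparison. Slc3a2, the heavy chain of amino acid transporters such as CD98, starts 106 bases from Snhg1 on the opposite strand. It had 306 CPM ± 7.6 in tumor against 97.1 CPM ± 2.94 in spleen (SD, n = 3), a 3.22-fold rise (log2 1.69, SE 0.06, adjusted p = 5.5e-10). Rcc1, the nuclear exchange factor for the GTPase Ran, runs across Snhg3 on the same strand and shares 135 exon bases with it. Rcc1 rose 2.08-fold (log2 1.05, SE 0.06, adjusted p = 4e-08), from 54.7 CPM ± 0.965 in spleen to 111 CPM ± 4.41 in tumor. The noncoding model Gm17300 shares 705 exon bases with Snhg3 on the opposite strand and rose by 0.45 on the log2 scale (adjusted p = 0.0054). Reads in these shared bases cannot be assigned to Snhg3 or its neighbors from the counts alone.

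Zbtb37, a zinc finger gene that overlaps the start of Gas5 on the opposite strand, was 1.51-fold lower in tumor while Gas5 was higher (log2 -0.59, SE 0.13, adjusted p = 0.0016). Mcmdc2, a meiotic gene that shares 127 exon bases with Snhg6 on the opposite strand, was higher (log2 0.89, adjusted p = 0.015) at 0.763 CPM ± 0.196 against 0.42 CPM ± 0.0616 (SD, n = 3). Frmd8os starts 145 bases from Neat1 on the opposite strand and was 1.78-fold lower (log2 -0.83, SE 0.15, adjusted p = 0.00034). Among 10 listed genes of the chromosome 19 region around Malat1 and Neat1, 5 were lower and 2 higher, with a median log2 change of -0.49. Over all genes tested, 35.9% were lower and 34.8% higher. Slc25a45, a mitochondrial carrier, was 2.5-fold lower (log2 -1.32, adjusted p = 1.5e-08) and Frmd8 was 1.82-fold lower (log2 -0.87, adjusted p = 7.3e-07). Pola2, a subunit of DNA polymerase alpha, was 1.63-fold higher (log2 0.71, adjusted p = 7.7e-07), and Ltbp3, a binding protein of latent TGF-beta, was 2.45-fold higher (log2 1.30, adjusted p = 5.3e-06).

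Of 7 other noncoding snoRNA host genes tested, 3 were higher, 1 was lower and 3 passed in neither direction, with a median log2 change of 0.25. The share higher was 42.9%, beside 34.8% of all genes tested, and the share lower was 14.3%, beside 35.9%. Snhg17 (log2 0.34, adjusted p = 0.0019), Epb41l4aos (log2 0.50, adjusted p = 0.034) and Snhg10 (log2 0.77, adjusted p = 0.037; named because the count is small) were the higher ones. Snhg14 had a log2 difference of -0.41 (adjusted p = 0.2). Snhg20 was 1.74-fold lower (log2 -0.80, SE 0.10, adjusted p = 1.6e-05), at 7.85 CPM ± 0.738 against 13.9 CPM ± 0.318 (SD, n = 3). The higher count was 1 in place of 3 without tumor replicate 2, without spleen replicate 1, without spleen replicate 3 and by DESeq2, and the lower count was 2 without tumor replicate 3.

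The protein-coding snoRNA host genes and the snoRNP proteins were mostly higher in tumor. Of 20 protein-coding host genes, 18 rose and the median log2 change was 0.92. Among them Hspa8, a constitutive HSP70 chaperone, had 2316 CPM ± 88.4 against 1171 CPM ± 8.25 (SD, n = 3; log2 1.01, adjusted p = 1e-08), and Rack1, a ribosomal scaffold, had 572 CPM ± 10.9 against 277 CPM ± 12.4 (log2 1.08, adjusted p = 1.7e-08). Eif4a2, a translation initiation helicase, had 63.3 CPM ± 13.2 against 65.1 CPM ± 0.822 (log2 -0.01, adjusted p = 0.91). Without tumor replicate 3, 1 of the 20 was called lower. Hspa8 is also on a list of 25 genes induced when tissue is dissociated, of which 18 were higher and 4 lower, with summed levels of 8514 to 8742 CPM in tumor and 4264 to 4367 CPM in spleen. On that list Nr4a1, an early gene of T cell receptor signaling, was 25.2-fold higher (log2 4.65, adjusted p = 2.2e-12), and Hspa1a, a heat-inducible HSP70, was 73.1-fold higher (log2 6.19, adjusted p = 6.8e-11). Socs3 (log2 -1.64, adjusted p = 1.4e-08) and Zfp36 (log2 -0.83, adjusted p = 1.2e-07) were lower. The part of tissue dissociation in the values of the host genes was not tested.

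Of 18 proteins that bind or assemble snoRNAs, 17 rose, with a median log2 change of 1.09. Nolc1, a nucleolar chaperone of snoRNPs, was 2.87-fold higher (log2 1.52, SE 0.05, adjusted p = 7e-10), and Ruvbl1, an ATPase that assembles them, was 2.64-fold higher (log2 1.40, SE 0.06, adjusted p = 3.6e-09). Pih1d1, a cofactor of that assembly, stood at 31.6 CPM ± 0.887 and 33.3 CPM ± 1.05 (SD, n = 3; adjusted p = 0.54). Beside these, the 8 noncoding host genes had log2 changes from 0.24 to 1.19.

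Factors of nonsense-mediated decay and regulators of pyrimidine-run mRNAs moved in both directions, as did all genes tested (34.8% higher and 35.9% lower). Of 16 decay factors, 4 were higher and 5 lower, with a median log2 change of -0.14. Eif4a3 (log2 0.59, adjusted p = 1.3e-06) and Rnps1 (log2 0.58, adjusted p = 2.6e-06), both linked to the exon junction complex, rose, while Smg9 (log2 -0.91, adjusted p = 6.7e-07) and Pnrc2 (log2 -1.18, adjusted p = 1e-06) fell. Of 16 regulators of mRNAs with a terminal pyrimidine run, 5 were higher and 6 lower, with a median of 0.03. Eif4ebp1, the translation inhibitor controlled by mTORC1, was 2.91-fold higher (log2 1.54, adjusted p = 1.5e-08) and Cnbp was 1.74-fold higher (log2 0.80, adjusted p = 2.8e-07). The mTORC1 subunits Mlst8 (log2 -0.64, adjusted p = 4.7e-06) and Rptor (log2 -0.76, adjusted p = 1.4e-05) were lower.

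The proteins of paraspeckles and nuclear speckles moved in both directions, beside 34.8% higher and 35.9% lower over all genes tested. Of 21 paraspeckle proteins, 10 were higher (47.6%) and 3 lower (14.3%), with a median log2 change of 0.18. Pspc1, a core paraspeckle protein that binds Neat1, was 1.65-fold higher (log2 0.73, adjusted p = 6.9e-06), as was Dazap1 at 1.42-fold (log2 0.51, adjusted p = 2.3e-05). Cirbp, an RNA-binding protein induced by cold (log2 -0.67, adjusted p = 5e-06), and Zc3h6 (log2 -1.14, adjusted p = 6.3e-05) were lower. Of 18 nuclear speckle proteins, 7 were higher (38.9%) and 8 lower (44.4%), with a median of 0.00. The splicing factor Srsf2 rose (log2 0.42, adjusted p = 1.9e-05), and Srsf5 (log2 -0.76, adjusted p = 2.8e-07) and the splicing kinase Clk1 (log2 -1.02, adjusted p = 8e-07) fell.

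Of 13 genes for RNase P, RNase Z and the triple-helix binding protein Mettl16, which act on the 3′ ends of Malat1 and long Neat1, 11 rose, with a median of 0.63. Pop1, a protein subunit of RNase P, was 2.18-fold higher (log2 1.13, adjusted p = 1.5e-07), and Mettl16 was 2.16-fold higher (log2 1.11, adjusted p = 4.8e-07). Rpp21, another subunit, stood at 30.6 CPM ± 0.32 and 33.3 CPM ± 1.26 (SD, n = 3; adjusted p = 0.23).

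Among 14 other long noncoding RNAs tested, 7 were lower and 1 higher, with a median log2 change of -0.44. Tug1 was 2.21-fold lower (log2 -1.14, SE 0.08, adjusted p = 1.6e-07), and Peg13 was 3.06-fold lower (log2 -1.61, SE 0.14, adjusted p = 9e-07). Pvt1, the neighbor of Myc, was the higher one, with 16.6 CPM ± 2.52 in tumor against 7.35 CPM ± 0.624 in spleen (SD, n = 3; log2 1.21, adjusted p = 2.9e-06). Mir155hg, the host of miR-155, had 0.701 CPM ± 0.171 and 0.447 CPM ± 0.0929 (log2 0.67, adjusted p = 0.056). The higher count was 2 without tumor replicate 1 and 3 without tumor replicate 3. In that library Gm26917, the most abundant noncoding model on this list, took 0.664% of counts, beside 1.51% and 1.3% in the other tumor libraries and 1.22% to 1.23% in spleen.

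**Figure D4:**
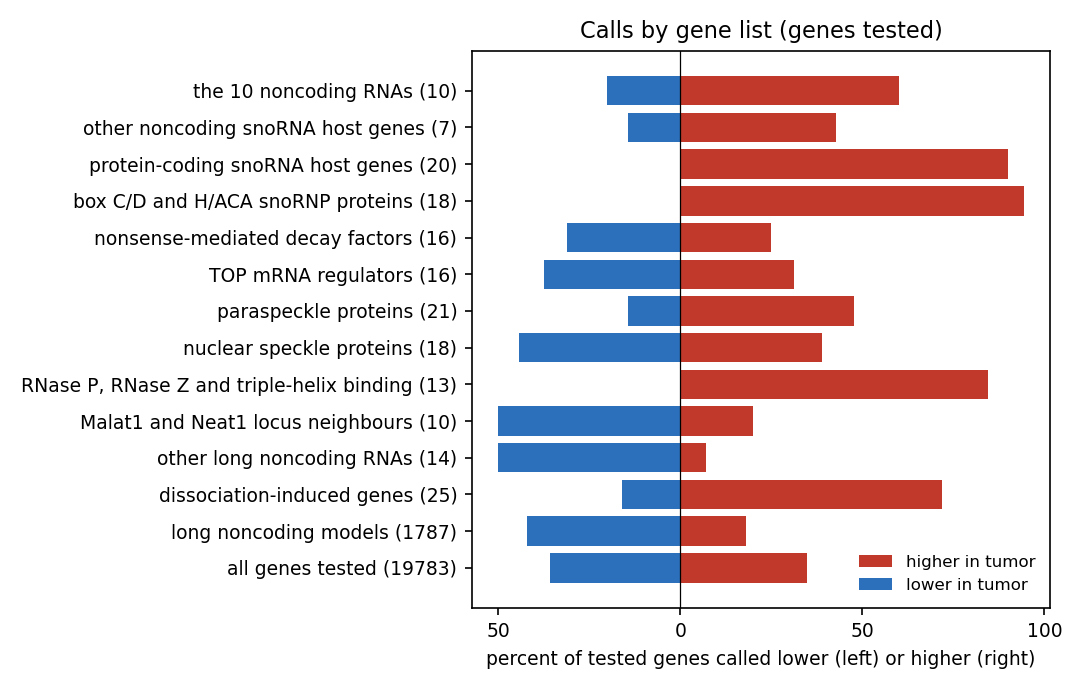
Percent of the tested genes of each list that were called higher (red, right) or lower (blue, left) in tumor, with the number tested in parentheses. The protein-coding host genes (90% higher), the snoRNP proteins (94.4%), the RNase P list (84.6%) and the dissociation-induced genes (72%) lie furthest above the 34.8% of all genes, and the other long noncoding RNAs (50% lower) are near the 42% of long noncoding models.

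The genes whose levels ran most like Gas5, Malat1 and Neat1 over the 6 libraries were found among 10684 tested genes with a mean of at least 10 CPM. Likeness was the root mean square difference of gene-centered log2 (CPM + 0.5), so smaller is more alike. For Gas5 these were Ndufb5 (0.013), a subunit of respiratory complex I, Gm7658 (0.0248) and Rtraf (0.0257). For Malat1 they were its own inner model Gm37376 (0.0955), Naaa (0.124), a lysosomal amidase, and Calcrl (0.135), a receptor for adrenomedullin and CGRP. For Neat1 they were Gimap3 (0.0293), a GTPase of lymphocytes, Trim21 (0.0366), an intracellular antibody receptor, and Fes (0.0407), a tyrosine kinase. Gimap3 had 473 CPM ± 14.5 in tumor against 1251 CPM ± 20.8 in spleen (SD, n = 3). With 6 libraries in 2 tissues, likeness is mostly a matter of the difference between the tissues.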

How the data were processed

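RNA from sorted P14 CD8+ T cells was sequenced as single 50-base reads, per the labels' protocols. The authors deposited raw counts for each gene, as whole numbers with no normalization. Tools and build, per the submitters' processing notes, were STAR 2.3, bcl2fastq 2.20.0.422, featureCounts (no version listed) and mm10. Not given in the sources used here were the annotation release, the strand setting and the handling of multi-mapped reads. Symbols and coordinates came from GENCODE M21. A symbol was found for 55154 of 55335 identifiers. Libraries were grouped by tissue, 3 against 3.

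Tests used edgeR 4.0.16 in R 4.3.3 (quasi-likelihood, TMM scaling, tissue as factor) on 19783 genes kept by filterByExpr (minimum count 10, minimum total 15), with Benjamini-Hochberg adjustment over all of them. CPM used total counts without TMM. Level per length used merged exons. Ratios were tested with an exact permutation test (SciPy 1.17.1). The procedure was tested on simulated data. Alternatives were other scalings, no filter, DESeq2 1.42.0, limma-voom (limma 3.58.1), a replicate block and leaving out each library. Counts without inner gene models were an alternative chosen after seeing the data.

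The 10 genes and the 16 other lists were chosen with earlier results of these data known. Named genes were the 10 genes, genes overlapping them or starting within 2 kb on the other strand, of each list the 2 with the smallest p for either direction, the markers with the highest level in each tissue, and the 3 genes most like Gas5, Malat1 and Neat1. Cr2, Cd8a, Dct, Snhg10, Gm26917 and the markers at 0 were named after their values were seen. The listed genes Snhg4, Snhg7, Snhg16, Norad, Morrbid and Ahsp were not matched and are not analysed here. For 3 listed melanoma markers (Tyrp1, Slc45a2 and Mc1r) all spleen libraries were at 0. Of the 4 tested, 1 was higher (Dct) and 1 lower (Pmel). The summed levels of all listed melanoma markers, mostly Gpnmb and Pmel, were 21.7 to 23.2 CPM in tumor and 32.9 to 33.6 CPM in spleen. Of the erythroid markers, 9 were tested, 5 higher and 3 lower. Of the 10 CD8 T cell markers, 1 was higher (Cd8a) and 4 were lower. Without tumor replicate 3, 2 CD8 T cell markers and 2 melanoma markers were higher. The melanoma count was also 2 without any one of the spleen libraries, and 5 with no filter on low counts.

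The labels do not say whether equal replicate numbers mark the same mouse. The deviations from the tissue means of a tumor and a spleen library of the same number correlated at -0.000787, 0.0157 and 0.00242. Values this low show no sign of pairing, but cannot show that such libraries came from different mice.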

Additional observations from a re-analysis of the deposited data

How the results depend on the processing

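All 10 genes kept their direction under 13 other settings (scaling, filter, test, block and each library left out), and 9 of them also kept their side of the threshold. The exception was Snhg3, which passed without tumor replicate 1 (log2 0.43, adjusted p = 0.0078). Over those settings the log2 change lay between 0.47 and 0.64 for Gas5, 1.04 and 1.27 for Snhg1, 1.08 and 1.23 for Snhg6, 1.12 and 1.29 for Snhg12, 0.70 and 0.82 for Snhg15, 0.40 and 0.63 for Snhg5, 0.18 and 0.43 for Snhg3, 0.16 and 0.33 for Snhg8, -1.75 and -1.41 for Malat1, and -1.45 and -1.34 for Neat1. For all but Neat1 both ends came from leaving out 1 library. With no filter on low counts the median log2 change of all 35231 genes was -0.148, beside -0.021 in the reported test and -0.073 to -0.016 under the other settings. With the longest annotated transcript in place of merged exons, 8 of 10 genes kept their rank of level in tumor, where Gas5 (31 CPM per kb) and Malat1 (30.8) changed places, and 6 of 10 in spleen. With TMM-scaled CPM all 10 kept it. The Neat1 to Malat1 difference ranged from 0.00071 to 0.0375 with 1 library left out.

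The pairing check gave correlations under 0.1 for every replicate number. With a replicate block the log2 change was -1.57 for Malat1, -1.40 for Neat1, 0.56 for Gas5 and 0.27 for Snhg3, and it changed no call of the 10 genes. With the block 6746 genes were higher and 7026 lower, beside 6890 and 7093 without it. Of the recomputed counts over the gene lists, 401 stayed within 1.5 times the reported count and 15 moved.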
